A study of Mus musculus with 16 samples.

Results

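Lung RNA of 4 untreated mice was examined to see which genes a normal lung holds at high, intermediate or undetected signal, and which of them differ between individual animals. The members are the 4 arrays titled Untreated, of 16 arrays in the series, and they were chosen by that title alone. The 4 mice were A/J females, of an inbred strain in which lung tumours are common, kept on the AIN-76 diet with 0.35 ppm selenium and given neither agent. The other 12 arrays hold lungs of the same sex and strain: NNK (a tobacco-specific nitrosamine, injected once into the abdomen), SECY (selenocystine, a selenium-containing amino acid, fed at 15 ppm for 10 days) and NNK+SECY (the injection and, after 3 days, the diet), with 4 mice in each. NNK-injected mice were killed after 13 days. The sources used here state no age. On each 2-colour array the lung's own RNA carried the red dye Cy5 and a pool carried the green dye Cy3. The pool held RNA of the same 4 untreated mice in equal parts, so each Untreated array sets a mouse against a mix of which it is 1 of 4 parts. By that construction a transcript found in 1 mouse alone could reach a log2 ratio of at most 2.

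As background, the lung's gas exchange surface is lined by flat alveolar type 1 cells and by alveolar type 2 cells, which make surfactant, the mix of lipid and protein that keeps alveoli open. Club cells of the mouse airway secrete small protective proteins and carry cytochrome P450 enzymes that oxidise inhaled and blood-borne chemicals. A dense capillary bed, resident macrophages, fibroblasts, smooth muscle and circulating blood cells supply the rest of the RNA of a whole lung.

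Genes were ranked by the mean over the 4 arrays of log2 Cy5 processed signal, with the brightest probe standing for a gene name. Of 28100 gene names, 18964 (67.5%) had Cy5 signal well above background on every Untreated array and were ranked. Among the 18612 names that carry a gene symbol, 14477 (77.8%) were ranked. The top 5% of the ranked names, 948 of them, are called abundant. They had a log2 signal of at least 14.71. The next 8534, down to the median rank, are called moderate, and the lower 9482 are called low and reached down to 6.97. A further 2655 names had a detected probe on some array only (partly detected), and 6481 had none (not detected). Correlation of log2 Cy5 signal between pairs of arrays ran from 0.978 to 0.989 across all probes, which are not independent replicates. A rank orders probe brightness and not molecule number: among 5884 names with more than 1 detected probe, the probes of a name spanned a median of 2.19 log2 units (quartiles 1.04 and 3.56). The borders are not gaps. Samd10 (14.72) and Olfr571 (14.71) lay just inside the abundant group, and Dennd3 (14.71) and Rarres2 (14.71) just outside. Ddx47 and AW554918 closed the moderate group at 10.55, and Tnni2 and Polr3a opened the low one at 10.55.

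**Figure D1:**
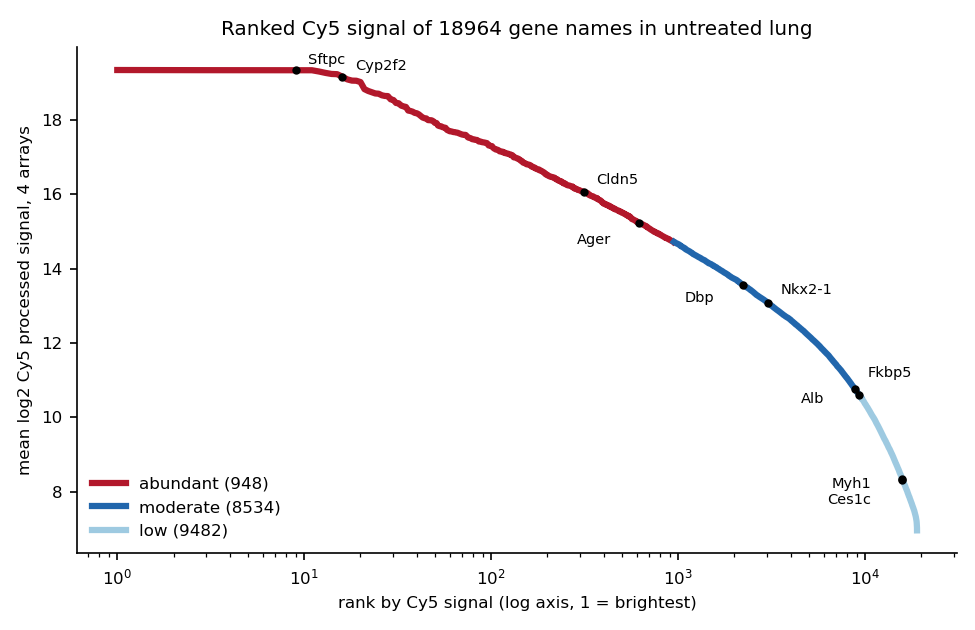
Mean log2 Cy5 processed signal over the 4 Untreated arrays (y axis) against rank (x axis, log scale) for 18964 ranked gene names, coloured as abundant (948), moderate (8534) or low (9482). The flat start is the detector limit shared by 11 saturated genes, and Alb, the serum albumin gene, sits near the border of the moderate and low groups at 10.61.

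The brightest genes of the untreated lung were secretory and detoxifying genes of airway and alveolar epithelium together with globins and the protein synthesis machinery. Spots of 11 genes were saturated in Cy5 on all 4 arrays, so their order and their true level are unknown. They were Sftpc (surfactant protein C, made by type 2 cells), Scgb1a1 (the main secreted protein of club cells), Cbr2 (carbonyl reductase), Lyz2 (lysozyme), Hbb-bt (beta globin), Gsn (gelsolin, which severs actin filaments), Grn (granulin precursor), Rplp1 (a ribosomal stalk protein), Pigt, Ptprz1 and Lars2. Sftpc had a log2 Cy5 signal of 19.25, 19.32, 19.42 and 19.30 in Untreated 1 to 4, and the other 10 had the same values within 0.01. For 4 of these names a second probe was far dimmer. Ptprz1, a receptor phosphatase, had further detected probes at 11.00 and 9.36. Pigt, an enzyme of lipid anchor synthesis, had one at 8.0, Grn had one at 13.52 and Lyz2 had one at 14.43, so the saturated spot of these names does not give a level for the gene.

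Saturated on 2 of the 4 arrays were Eef1a1 (translation elongation factor, mean 19.29), Scgb3a2 (a secretoglobin of airway cells, 19.22) and Hba-a1 (alpha globin, 19.22). Cyp2f2, the cytochrome P450 most typical of mouse club cells, was the first gene in the order without a saturated spot. Its log2 Cy5 signal was 18.94, 19.26, 19.21 and 19.19 in Untreated 1 to 4, with a mean of 19.15 ± 0.14 (SD, n = 4). Sec14l3, a lipid-binding protein, followed at 19.08 ± 0.20, and Fth1, the ferritin heavy chain that stores iron, at 19.04 ± 0.08 (SD, n = 4 each). The other named genes among the 25 brightest included Rplp2, Rps12, Rplp0, Rps27 and Rps23 of the ribosome and Sftpa1 (surfactant protein A, 18.70 ± 0.19). The rest were COX2 (the mitochondrially encoded subunit of cytochrome c oxidase, 18.65 ± 0.13) and Wfdc2 (a secreted protease inhibitor of epithelium, 18.63 ± 0.09). Second probes were dimmer for Rplp0 (15.38), Eef1a1 (15.07), Sec14l3 (13.96), Sftpa1 (13.65) and Rplp2 (8.36), so these places depend on the probe.

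Markers of the lung's own structural cells were ranked without exception in 5 lists. All 19 alveolar type 2 markers, 15 alveolar type 1 markers, 17 club markers, 25 endothelial markers and 25 fibroblast and smooth muscle markers were ranked. The share abundant was 13 of 19, 12 of 15, 12 of 17, 10 of 25 and 8 of 25, in that order, against 4.29% of all names with a symbol. The median log2 signal was 15.49, 15.53, 16.14, 14.54 and 14.06 in these lists, against 10.05 over all names with a symbol. The labelled tissue carried these markers, though the lists were chosen with earlier results of these data known.

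The brightest probes of surfactant genes spanned a wide range of signal. After Sftpc, which was saturated, and Sftpa1 came Sftpd (surfactant protein D) at a mean log2 Cy5 signal of 17.50, Fasn (fatty acid synthase) at 17.30, Abca3 (the lipid pump of lamellar bodies) at 16.91 and Ctsh (a protease that trims surfactant proteins) at 16.63. A second probe of Sftpa1 had 13.65, so its place in this order depends on the probe. Sftpb, needed for surfactant films, was moderate by its only probe. The Sftpb signal was 13.68, 13.43, 13.56 and 13.38 in Untreated 1 to 4. Napsa, another processing protease, stood at 15.13 and Lpcat1, which remodels surfactant phospholipid, at 13.88. All 12 surfactant genes were ranked, 7 of them abundant. Among type 1 markers Emp2 (a membrane protein, 17.98), Cav1 (the coat protein of caveolae, 17.61) and Aqp5 (a water channel, 17.04) were brightest, and Ager, the receptor that marks these cells, had 15.01, 15.28, 15.38 and 15.25 in Untreated 1 to 4. Pdpn, a further type 1 marker, was the dimmest at 11.04.

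In the capillary bed, Ramp2 (part of the adrenomedullin receptor, 17.47), Calcrl (its partner, 16.45) and Kdr (the main VEGF receptor, 16.13) led the endothelial markers. Cldn5, the endothelial tight junction claudin, had 16.03, 16.23, 16.15 and 15.79 in Untreated 1 to 4. Inmt (an amine methyltransferase, 17.59), Mfap4 (a matrix glycoprotein, 16.10) and Col1a2 (a chain of type I collagen, 15.96) were among the brightest mesenchymal markers after Gsn. Ciliated cell markers were dimmer, with 1 of 20 abundant (Tuba1a, a tubulin not restricted to cilia) and a median of 11.75. Of these 20 markers 2 were not detected. Foxj1, the transcription factor of motile cilia, had 14.13.

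Immune markers were mostly moderate or low. The 25 markers of alveolar macrophages and monocytes were all ranked, with Chil3 (a chitinase-like protein, 15.69), Ctsd (a lysosomal protease, 15.64) and Fabp4 (a fatty acid binding protein, 15.19) abundant beside the saturated Lyz2. T and NK cell markers had a median of 8.97, with none abundant, 18 of 24 low, and Cd28, Ctla4 and Foxp3 not detected. B and plasma cell markers had a median of 9.33, led by Ighm, the IgM heavy chain, at 13.62. Neutrophil markers had a median of 8.91, with S100a9 at 13.97 and Elane and Ngp not detected. Basal and neuroendocrine markers had a median of 8.87, none of 13 reached the moderate group, and Syp and Insm1 were not detected.

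**Figure D2:**
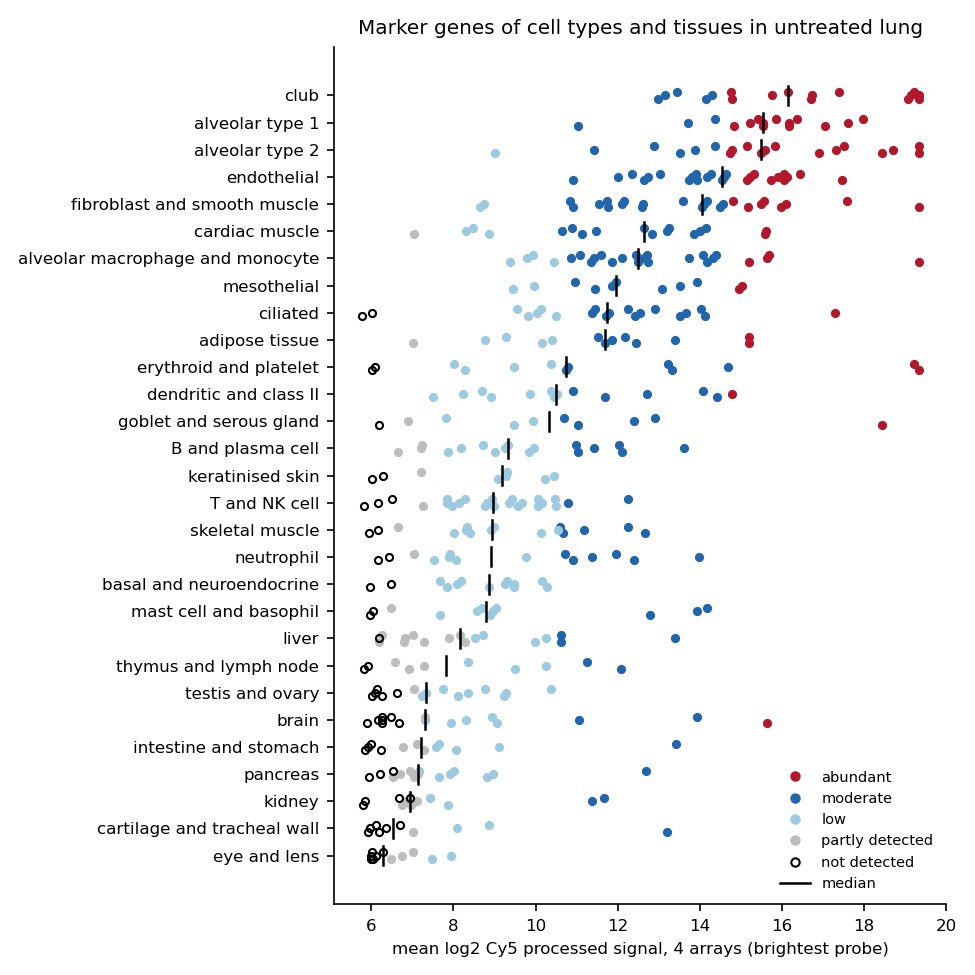
Each point is a marker gene at its mean log2 Cy5 signal over the 4 Untreated arrays (x axis), in rows of cell type or tissue lists ordered by their median (black line), with colour for its signal group and open circles for genes not detected. Club, alveolar type 1 and alveolar type 2 markers lie at the top with medians of 16.14, 15.53 and 15.49, and eye and lens markers at the bottom with 6.29.

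Markers of organs outside the chest, and of cartilage and tracheal wall, were detected to very different extents. Of 11 eye and lens markers 2 were ranked, and 6 were not detected, against 14.6% not detected over all names with a symbol. Not detected were also 7 of 16 brain markers, 4 of 12 kidney markers, 4 of 12 intestine and stomach markers, 5 of 15 testis and ovary markers and 6 of 10 cartilage markers. Ranked were 8 of 16 brain, 9 of 15 testis and ovary and 5 of 8 keratinised skin markers. Of the pancreas list 7 of 15 were ranked, and of the liver list 7 of 17. Each of these shares was below the 77.8% ranked over all names with a symbol. Not detected were 3 of 15 pancreas and 1 of 17 liver markers. The skin median of 9.19 lay below the 10.05 of all names with a symbol. Gfap, the filament of astrocytes, was below the detection limit on every array, and Ins2, an insulin gene, was above it on Untreated 1 and 4 only. The brightest markers of these lists included Syn1 (a synaptic vesicle protein, 15.65), Mbp (myelin basic protein, 13.92), Fabp1 (a fatty acid binding protein of liver and gut, 13.41) and Col2a1 (cartilage collagen, 13.19). Cardiac muscle markers were bright: 16 of 17 were ranked, with Myh7 (15.61) and Myl7 (15.57) abundant. Myh6, a cardiac myosin heavy chain, had 12.44, 12.83, 12.67 and 12.62 in Untreated 1 to 4. As background, pulmonary veins of mice carry a sleeve of cardiac muscle. None of the 8 Y-linked genes was ranked and 6 were not detected, among them Ddx3y. Xist, the RNA that silences an X chromosome in females, was abundant at 16.30, 16.16, 16.19 and 16.19. The label gives female mice.

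Gene families showed the same contrast. Over all names with a symbol 77.8% were ranked, 4.29% abundant and 14.6% not detected. Of 85 ribosomal protein genes 83 were ranked and 67 abundant. All 36 NADH dehydrogenase subunits and 39 of 40 proteasome subunits were ranked. In sensory families, by contrast, 335 of 905 olfactory receptors (37.0%), 30 of 131 vomeronasal receptors (22.9%) and 3 of 16 taste receptors were ranked. A single olfactory receptor, Olfr571, reached the abundant group, at 14.42, 14.73, 14.82 and 14.88 in Untreated 1 to 4. Among the 39 Hox genes, the regulators of position along the body axis, 20 were ranked and 15 not detected. The ranked ones included Hoxa5, which lung development requires, with 12.11, 11.52, 11.43 and 11.36. Hoxc5 (13.55) and Hoxa7 (13.03) were the brightest in Cy5. Hoxc5 read above the Cy3 pool on all 4 arrays, with log2 ratios of 0.72, 0.76, 0.72 and 0.68, so its place may depend on the dye. Hoxa10, Hoxa11, Hoxc9, Hoxc10, Hoxd9, Hoxd10 and Hoxd11, which pattern posterior levels, were not detected. Nkx2-1, the lung lineage factor, had 13.09, 13.04, 13.17 and 13.02.

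Enzymes relevant to the agents of the study were measured before any treatment. Of 32 xenobiotic phase I genes 31 were ranked and 9 abundant, against 77.8% and 4.29% of all names with a symbol. Cyp2a5, a mouse P450 known to activate NNK, had a log2 signal of 14.88, 16.12, 16.08 and 15.95 in Untreated 1 to 4. It was lower on Untreated 1 than on the others, and its second probe was lowest there too, with log2 ratios to the pool of -1.12, 0.05, 0.22 and 0.16. Cyp2a4, a near-identical gene, had ratios of -1.09, 0.16, 0.35 and 0.30, and signals of the 2 genes by these probes cannot be told apart. Por, which passes electrons to P450 enzymes, had 16.78. Cyp1a2 was partly detected and Cyp1a1 low at 8.50. All 35 antioxidant and conjugation genes were ranked, with Prdx6 (a peroxidase, 17.79), Sod1 (superoxide dismutase, 17.41) and Gstm1 (a glutathione transferase, 17.14) brightest. Of 24 selenoprotein genes 21 were ranked (87.5%) and 7 abundant, against 77.8% and 4.29% of all names with a symbol. Selenop, the selenium carrier of plasma, had 18.34, Selenof 16.60 and Gpx1, a glutathione peroxidase, 15.40. Selenov was not detected, and the deiodinases Dio1 and Dio3 were partly detected.

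To see which genes differ between untreated mice, the SD over the 4 arrays of the log2 ratio of lung (Cy5) to pool (Cy3) was taken for the 16051 ranked genes that were also well above background in Cy3 and had no flagged spot. No test was made, because each mouse was measured on 1 array and the 4 arrays lie on different slides, so that among untreated lungs mouse and slide cannot be told apart. The median SD was 0.139 (quartiles 0.091 and 0.205). For comparison, replicate spots of 1 probe on 1 array had a median SD of 0.085. An SD above 0.5, used to call a gene variable, was met by 285 genes (1.78%), and an SD above 1 by 26. Among those 285, the SD of the centred Cy5 signal had a median of 0.66 and that of the Cy3 signal, the same pool on every array, 0.129. Over all 16051 genes these medians were 0.167 and 0.110. Of the 285 variable genes 47 had a further measured probe. In 32 of them (68.1%) it put the same array farthest out on the same side, against 31.1% over all genes with a further probe, and in 29 its own SD was above 0.5.

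Over all 16051 genes, the highest ratio was on Untreated 1, 2, 3 and 4 in 32.2%, 19.8%, 30.0% and 17.9% of cases, and the lowest in 34.6%, 22.4%, 28.9% and 14.1%. Among the variable genes, Untreated 1 stood apart most often. It was the farthest array for 97 genes as the higher and for 65 as the lower. Untreated 2 was farthest for 57 higher and 2 lower, Untreated 3 for 26 higher and 31 lower, and Untreated 4 for 3 higher and 4 lower. Over all genes with a ratio, Untreated 1, 2, 3 and 4 were the farthest array in 39.7%, 19.2%, 28.2% and 12.9% of cases. Without Untreated 1 the count of variable genes was 124, and without Untreated 4 it was 469. With the background corrected by normexp and an offset of 50, which shrinks ratios of dim genes, it was 94, all of them among the 285. In bulk lung RNA, fewer cells of a type and less RNA per cell cannot be told apart.

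**Figure D3:**
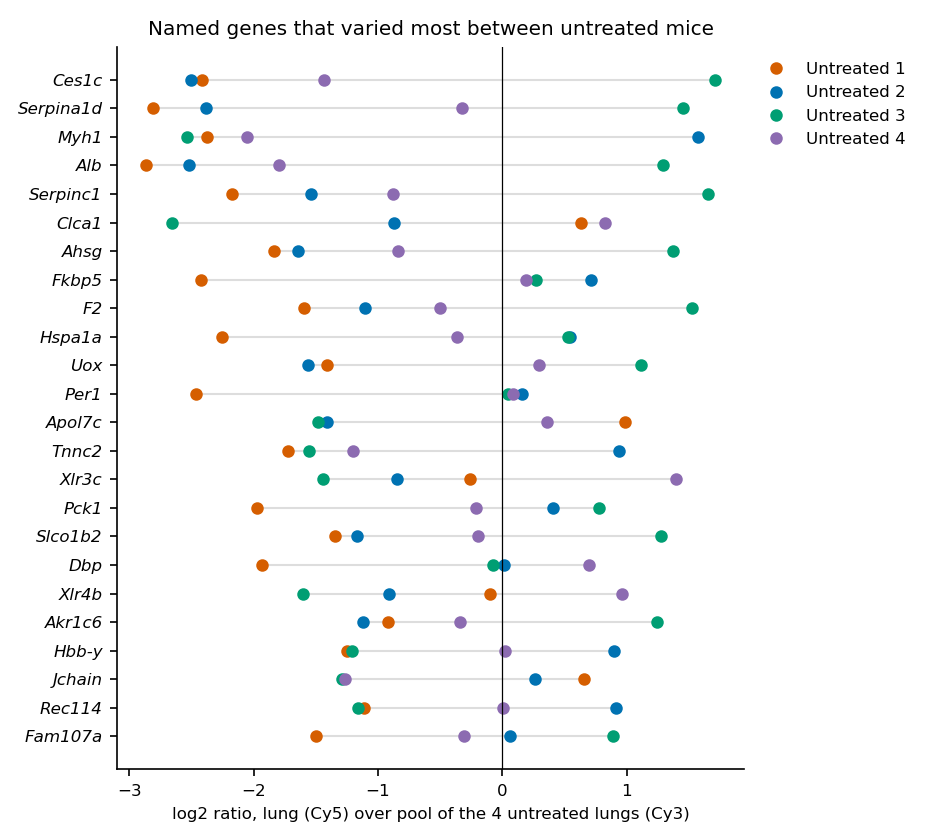
Log2 ratio of lung (Cy5) to the pool of the 4 untreated lungs (Cy3) on the x axis for the named genes of largest SD, with a coloured point for each mouse. Liver products such as Alb have Untreated 3 far to the right (1.29), Myh1 has Untreated 2 there (1.57), and Fkbp5 and Per1 have Untreated 1 far to the left (-2.43 and -2.46).

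Many genes known from liver were highest on Untreated 3. Alb, serum albumin, had a log2 Cy5 signal of 9.06, 9.51, 13.85 and 10.01 in Untreated 1 to 4 and ratios of -2.87, -2.52, 1.29 and -1.80. Ahsg, the plasma protein fetuin-A, had ratios of -1.83, -1.64, 1.38 and -0.84. Both are on the liver list. Among the genes of largest SD, 7 more genes with a known home in liver were named, each highest on Untreated 3: Ces1c (a carboxylesterase), Serpina1d (an alpha-1 antitrypsin), Serpinc1 (antithrombin), F2 (prothrombin), Uox (urate oxidase), Slco1b2 (a bile acid and anion carrier) and Akr1c6 (a steroid dehydrogenase). By the brightest probe their ratios on Untreated 3 lay between 1.12 (Uox) and 1.71 (Ces1c). A dimmer second probe of Serpinc1 had -0.73, -0.52, -0.15 and -0.59 in Untreated 1 to 4, highest on Untreated 3 but below the pool there. Second probes of Ces1c and Uox, not detected on every array, had 1.13 and 0.82 on Untreated 3. With normexp and loess the SDs of Uox, Slco1b2 and Akr1c6 were 0.44, 0.40 and 0.39, against 1.31, 1.2 and 1.07, and no longer met the limit for a variable gene. Uox was also above the pool on Untreated 4, at 0.30.

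The liver list as a whole was sparse. Of its 17 genes 7 were ranked with a ratio, and 6 of those 7 were highest on Untreated 3, against 30.0% of all genes. The list median was -0.29, -0.15, 0.55 and -0.16 in Untreated 1 to 4. A further 9 members were partly detected, against 1425 of 18612 names with a symbol, and all 9 were detected on Untreated 3. Apoa1, Ttr, Fga and Cps1 were detected on that array alone, and Apob and Fgg there and on Untreated 4. Apoa2, Fgb and Cyp7a1 were detected on all but Untreated 1. Over all names, 138 of 1053 with the brightest probe seen on 1 array had it on Untreated 3. Of 841 seen on 3 arrays, 398 were missed on Untreated 1. Fgg, a chain of fibrinogen, had a log2 Cy5 signal of 6.30, 6.60, 10.99 and 7.67. Hpd was not detected, and Trf (transferrin), Tat and Cyp3a11 had SDs of 0.13, 0.12 and 0.23. The part of liver RNA in these values was not tested.

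Fast skeletal muscle genes were highest on Untreated 2. Myh1, a myosin heavy chain of fast fibres, had a log2 Cy5 signal of 7.26, 11.59, 6.96 and 7.51 in Untreated 1 to 4, and ratios of -2.37, 1.57, -2.54 and -2.06. Tnnc2, fast troponin C, had ratios of -1.73, 0.94, -1.55 and -1.20. All 12 measured members of the skeletal muscle list were highest on Untreated 2, against 19.8% of all genes, and 7 of them were variable. The list median was -0.44, 0.50, -0.33 and -0.56. Of the cardiac list 12 of 16 were also highest on Untreated 2, with medians of -0.26, 0.29, -0.01 and 0.01 and no variable member. Nppa, the atrial natriuretic peptide gene, had 12.63, 13.56, 12.66 and 12.48. The part of muscle RNA in these values was not tested.

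Most genes on the glucocorticoid, circadian clock and heat shock lists were lowest on Untreated 1. Fkbp5, a co-chaperone that responds to glucocorticoid, had a log2 Cy5 signal of 8.71, 11.90, 11.31 and 11.12 in Untreated 1 to 4, and ratios of -2.43, 0.71, 0.27 and 0.19. Its dimmer probes gave a smaller range, with ratios of -0.90, 0.08, 0.68 and -0.16 on the second. The third had -0.43, -0.57, 0.41 and -0.315, and so was lowest on Untreated 2. Per1, a clock gene that glucocorticoid also induces, had 9.93, 12.50, 12.32 and 12.28. On Untreated 1 its ratio was -2.46, and on the other arrays it lay between 0.04 and 0.16. Dbp, a clock output factor named for binding the albumin promoter, had 11.94, 13.82, 13.88 and 14.60.

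On the glucocorticoid and metallothionein list 12 of 14 genes were lowest on Untreated 1, against 34.6% of all genes, and 8 were variable. The list median was -0.73, 0.19, 0.20 and -0.03. Tsc22d3, an anti-inflammatory target of the hormone receptor, had ratios of -1.70, 0.23, 0.37 and -0.24. The metallothioneins Mt1 and Mt2 and the kinase Sgk1 had SDs of 0.11, 0.05 and 0.07. Pck1, an enzyme of glucose synthesis named by its SD, had ratios of -1.97, 0.41, 0.78 and -0.21.

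The clock list had medians of -0.55, 0.01, 0.05 and 0.10, with 7 of 16 genes variable. Per2, Nr1d2, Dbp, Tef and Hlf had their lowest ratio on Untreated 1. Arntl, whose product drives the Per genes and whose RNA peaks in the opposite phase, was the reverse, with ratios of 0.62, -0.52, -0.39 and -0.77. Clock itself had an SD of 0.10. Heat shock genes had medians of -0.40, 0.14, 0.27 and -0.01, and 17 of 18 were lowest on Untreated 1. Hspa1a, the inducible Hsp70, had a log2 Cy5 signal of 11.29, 14.22, 13.96 and 13.22, and the first 3 of its 4 probes had SDs between 1.15 and 1.32. Labels place the mice on a 12 hr light and dark cycle, and the sources used here state no hour of killing.

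Promoter windows of genes that stood apart together are shown, read from RefSeq on build GRCm38.p6 as 250 bases before to 50 after a gene start, written 5′ to 3′ along the gene. Per1 (chr11:69098699-69098998, plus strand, the first of its 2 windows), Fkbp5 (chr17:28486100-28486399, minus strand) and Dbp (chr7:45704997-45705296, plus strand) were all lowest on Untreated 1 by their brightest probe. Capitals in these 3 mark CACGTG, the E-box that clock factors bind, searched on both strands, which reads the same on each.
Per1: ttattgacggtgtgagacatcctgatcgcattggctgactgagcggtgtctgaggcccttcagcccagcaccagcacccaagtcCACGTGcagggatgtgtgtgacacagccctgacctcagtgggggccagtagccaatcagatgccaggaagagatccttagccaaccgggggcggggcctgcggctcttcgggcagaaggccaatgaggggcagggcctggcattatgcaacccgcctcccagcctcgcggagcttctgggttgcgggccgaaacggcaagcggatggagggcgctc
Fkbp5: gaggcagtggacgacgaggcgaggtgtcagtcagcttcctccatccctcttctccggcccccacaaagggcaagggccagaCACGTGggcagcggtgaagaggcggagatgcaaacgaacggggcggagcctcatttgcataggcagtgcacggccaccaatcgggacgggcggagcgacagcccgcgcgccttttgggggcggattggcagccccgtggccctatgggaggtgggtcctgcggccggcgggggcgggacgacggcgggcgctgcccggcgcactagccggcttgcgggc
Dbp: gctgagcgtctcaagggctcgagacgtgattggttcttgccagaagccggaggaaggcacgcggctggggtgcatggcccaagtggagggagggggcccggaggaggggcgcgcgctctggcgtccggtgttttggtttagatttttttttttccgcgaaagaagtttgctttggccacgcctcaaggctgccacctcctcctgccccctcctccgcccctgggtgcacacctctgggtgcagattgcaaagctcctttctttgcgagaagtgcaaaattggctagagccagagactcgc
Alb (chr5:90460620-90460919, plus strand) was highest on Untreated 3. Its capitals mark TTATGTAA, a form of the D-box that Dbp and related factors bind, and CCAAT, each on either strand.
Alb: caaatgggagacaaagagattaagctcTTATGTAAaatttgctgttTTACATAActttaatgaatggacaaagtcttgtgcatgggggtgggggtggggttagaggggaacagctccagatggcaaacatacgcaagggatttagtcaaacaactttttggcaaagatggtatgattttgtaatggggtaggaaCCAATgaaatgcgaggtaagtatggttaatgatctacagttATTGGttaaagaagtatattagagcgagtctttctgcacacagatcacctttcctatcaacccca
Myh1 (chr11:67199852-67200151, plus strand) was highest on Untreated 2. Its capitals mark TATAAA on either strand.
Myh1: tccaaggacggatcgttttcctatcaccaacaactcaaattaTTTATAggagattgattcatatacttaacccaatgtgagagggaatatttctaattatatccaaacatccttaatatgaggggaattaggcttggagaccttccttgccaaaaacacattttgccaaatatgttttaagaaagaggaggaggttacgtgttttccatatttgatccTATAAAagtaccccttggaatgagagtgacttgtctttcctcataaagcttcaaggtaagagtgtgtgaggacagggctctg

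The E-box stood once in the first Per1 window and once in that of Fkbp5. Its letters are in neither the second Per1 window nor the Dbp window. It is found in 7.15% of all 32851 windows. Counting a gene if any of its windows held it, 8 of 44 variable genes farthest out below on Untreated 1 (18.2%) held it, against 1222 of 11298 ranked genes with a window (10.8%). The Alb window held 2 matches of TTATGTAA, counting both strands, and that motif is in 0.94% of all windows. The Myh1 window held 2 matches of TATAAA, which is in 13.6% of all windows. Ranked genes held TATAAA in 11.0% of cases and genes not detected in 22.5%, while GGGCGG, the GC box, was in 63.2% of ranked genes and 27.8% of genes not detected. These matches are a description of the letters in the windows.

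Most lymphocyte and proliferation genes were highest on Untreated 1. Ms4a1, the B cell surface protein CD20, had a log2 Cy5 signal of 12.12, 10.61, 10.25 and 11.13 in Untreated 1 to 4, and ratios of 0.85, -0.69, -0.99 and -0.18. Cd79b, Ighm and Fcer2a, further B cell genes, had ratios of 0.54, 0.47 and 0.82 on Untreated 1. Of 13 B and plasma cell genes 10 were highest there, against 32.2% of all genes, and 7 were variable. Jchain, which joins secreted antibodies, followed another order, with ratios of 0.66, 0.26, -1.29 and -1.27. Of the T and NK cell genes 12 of 15 were highest on Untreated 1, with medians of 0.38, -0.15, -0.27 and -0.02. Proliferation genes were highest there in 26 of 30 cases, with medians of 0.27, -0.11, -0.15 and -0.15. Egr1 and Fos, transcription factors induced within minutes of a stimulus, had ratios of 1.03 and 0.88 on Untreated 1. On the other 3 arrays both were below 0. The immediate early list as a whole did not follow them. Of its 20 measured genes 8 were highest and 8 lowest on Untreated 1, against 32.2% and 34.6% of all genes.

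Blood cell and mucosal genes gave 3 further patterns. Slc4a1, the band 3 anion exchanger of red cells, had ratios of -0.93, 0.71, -0.92 and 0.36, and Alas2, the red cell enzyme of haem synthesis, had -0.78, 0.61, -0.63 and 0.22. Hbb-y, an embryonic beta-like globin, and Rec114, a meiotic recombination gene, were also highest on Untreated 2, at 0.90 and 0.92. S100a9, a neutrophil protein, had 0.32, 0.12, -0.81 and -1.22. Clca1, a secreted product of mucous cells, had a log2 Cy5 signal of 11.61, 9.77, 8.09 and 11.64, low on Untreated 3. The X-linked genes Xlr3c and Xlr4b were highest on Untreated 4, with ratios of 1.39 and 0.96, and Xlr4b was so on each of its 3 probes.

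**Figure D4:**
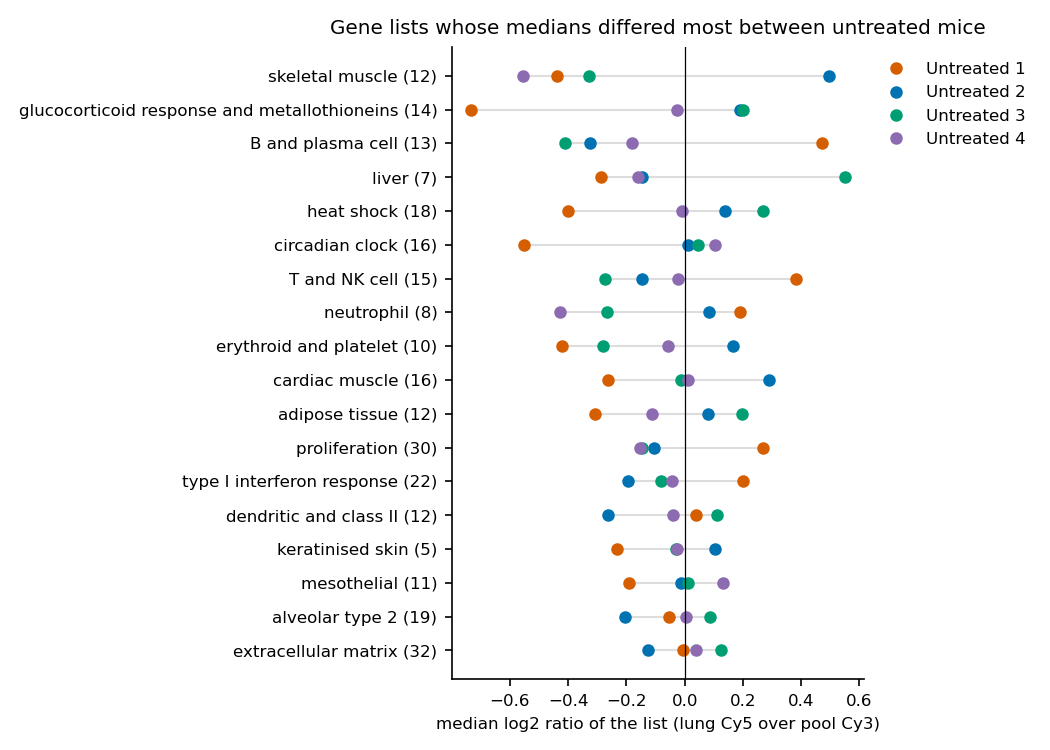
Median log2 ratio (lung Cy5 over pool Cy3, x axis) of the 18 gene lists with the widest range of medians between the 4 Untreated mice, with a coloured point for each mouse and the number of measured genes in brackets. Untreated 1 is the lowest point for glucocorticoid response (-0.73) and circadian clock (-0.55), Untreated 2 the highest for skeletal muscle (0.50) and Untreated 3 the highest for liver (0.55).

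Lung cell markers had smaller SDs than the skeletal muscle, clock and glucocorticoid lists, whose medians were 0.56, 0.39 and 0.51. The median SD was 0.16 for alveolar type 2, 0.10 for alveolar type 1, 0.17 for club, 0.13 for endothelial, 0.19 for fibroblast and smooth muscle and 0.13 for surfactant genes, against 0.139 for all genes. Extracellular matrix genes had 0.17 and lung lineage transcription factors 0.20, with Klf4 (SD 0.55, lowest on Untreated 1) as the variable member among the factors. None of the 25 endothelial or 19 type 2 markers was variable, and Cyp2a5 was the 1 variable club marker. Respiratory chain, housekeeping and selenoprotein lists each had a median SD of 0.09 and no variable member. Abundant genes were variable in 12 of 941 cases, moderate genes in 113 of 8518 and low genes in 160 of 6592.

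The genes variable among untreated lungs were also more spread than the rest in the other groups, which were measured against the same pool. Their median SD was 0.618 in Untreated, by construction, then 0.382 in NNK, 0.444 in SECY and 0.373 in NNK+SECY mice. For all 16051 genes it was 0.139 in Untreated, 0.113 in NNK, 0.170 in SECY and 0.107 in NNK+SECY mice. An SD above 0.5 was met by 71 variable genes in NNK (26.9%), 105 in SECY (37.4%) and 93 in NNK+SECY mice (33.1%), against 0.608%, 3.06% and 1.59% of all genes in those groups. Alb, at 1.29 on Untreated 3, had 2.53 on SECY 4, 2.61 and 1.61 on NNK+SECY 3 and 2, and 0.65 on NNK 3, and was below -0.5 on all other arrays. Myh1, at 1.57 on Untreated 2, had 1.58 on SECY 3 and 2.05 and 2.29 on NNK+SECY 1 and 3. Fkbp5, at -2.43 on Untreated 1, had -1.71 and -1.96 on NNK 1 and 4, -1.66 on SECY 1, and -1.10 and -1.81 on NNK+SECY 1 and 3, and was above 0 on every other array. Each of the 4 groups therefore had mice on both sides for Alb and Fkbp5. Replicate 1 of every group was among the arrays below 0 for both Fkbp5 and Per1, with Per1 at -2.46, -1.59, -0.93 and -0.42 in Untreated 1, NNK 1, SECY 1 and NNK+SECY 1. The median of the glucocorticoid list on these 4 arrays was -0.73, -0.65, -0.49 and -0.24. The file headers give Untreated 1 to 4 the same slide identities as NNK 1 to 4, scanned on another day, so the spread among NNK mice is not independent of slide. The part of slide or replicate number in these values was not tested.

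**Figure D5:**
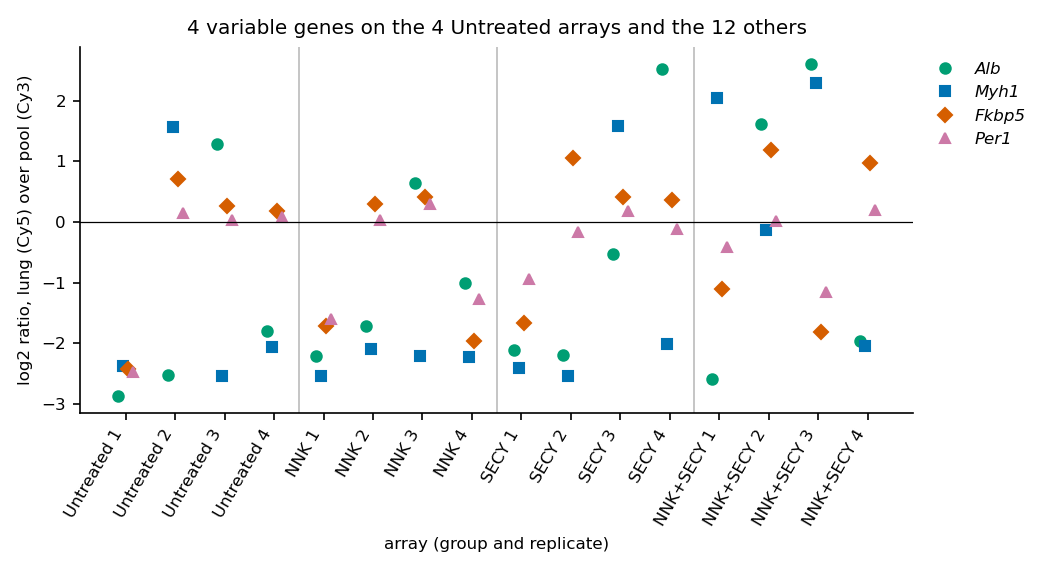
Log2 ratio of lung (Cy5) to the pool of untreated lungs (Cy3) for Alb, Myh1, Fkbp5 and Per1 (y axis) on the 4 Untreated arrays at the left and the 12 arrays of the other groups (x axis). Alb ranges from -2.87 on Untreated 1 to 2.61 on NNK+SECY 3, and every group holds arrays with Fkbp5 above 0 and below -1.

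The 4 Untreated lungs make up the pool. With an equal mix and dyes that read alike, a gene's linear ratio averaged over the 4 mice would be 1. The mean log2 ratio would then be 0 only where the mice are alike, and below 0 where they differ. Ces1c, for example, had a mean log2 ratio of -1.16 and a mean linear ratio of 1.00. The linear ratio, averaged over the 4 mice, had a median of 1.003 over all genes. Dye normalization centres the ratios of each array, so that median cannot check the dyes. Over the 285 variable genes the median was 0.995 (quartiles 0.934 and 1.07). A limma model of the 4 log2 ratios against 0, with Benjamini-Hochberg adjustment, called 63 of 16051 genes (0.392%), 44 higher in Cy5 (0.274%) and 19 lower (0.118%). Hsf2bp, a partner of a heat shock factor, had ratios of 0.92, 0.89, 1.1 and 1.14, a mean of 1.01 ± 0.07 (SE, limma adjusted p = 0.00513). Izumo4 had 0.86, 0.90, 0.85 and 0.87 (mean 0.87 ± 0.05 SE, limma adjusted p = 0.00512). Lowest was Mdfi, an inhibitor of myogenic factors, with -1.76, -1.76, -1.21 and -1.74 (mean -1.62 ± 0.10 SE, limma adjusted p = 0.00513). The other genes named higher were Olfr790, Stag2, Dpf1, Hoxc5, Fgd4 and Gast, between 0.70 and 0.75. Those named lower were Olfr449, Ptprz1, Lars2, Sftpc, Ogfr, Ccl20 and Scgb1a1, between -0.80 and -0.61. Ptprz1, Lars2, Sftpc and Scgb1a1 were saturated in Cy5, so their ratios are not measured levels. The count rested on single arrays: it was 1 without Untreated 2, 17 without Untreated 3 and 4 without Untreated 4. An equal mix cannot lie above or below all 4 of its own parts, so a ratio on 1 side in all 4 mice is not a difference in transcript level from such a mix. Dyes were not swapped on any array.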

How the data were processed

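Whole lung RNA was hybridised to 2-colour Agilent arrays. Per the file headers, Feature Extraction made the deposited processed intensity of each dye, spatially detrended and dye-normalized by a linear and lowess step, and the deposited log10 ratio of Cy5 over Cy3. The authors' deposited value table holds the same ratio as log2. The red intensity was put on a log2 scale, control spots were left out, spots of a probe were averaged, and the brightest probe stood for a gene name. Detection was the scanner software's well-above-background flag in Cy5 on all 4 arrays. The log10 ratios were turned into log2 for the spread between mice. Ratios of the 4 arrays were tested against 0 with limma 3.58.1 in R 4.3.3 (lmFit, eBayes, two-sided, adjusted p below 0.05), a step tested on simulated data. Other work used Python 3.11.15, numpy 2.4.6 and pandas 2.3.3. The arrays are labelled biological replicates, and their number (4) limits the precision.

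Members and gene lists were chosen with earlier results of these data known. Genes named were the 25 brightest, the 25 of largest SD, up to 4 brightest and 2 most variable of each list with its undetected members, up to 8 each way past the test, genes at group borders, and a fixed set of lung, organ and clock genes. Further list members named for their role were chosen after their values were seen. Symbols were updated through RefSeq accession or synonym where possible. Alternatives covered background correction, centring, probe choice, detection flag, filter and each array left out. Some genes that the rule takes in are not reported here.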

Additional observations from a re-analysis of the deposited data

Results flagged for a closer look

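A gap between the extreme mouse and its nearest neighbour past the 95% critical value of Dixon's test, as a share of the whole range of the 4 Untreated arrays, marks 1 mouse as far from the other 3. Chance gives this in about 1 in 20 groups of 4, and 832 of 16051 genes with a ratio (5.18%) met it. Of the 25 genes of largest SD, 3 met it: Myh1 with a gap share of 0.883 (Untreated 2 high), Fkbp5 with 0.833 and Per1 with 0.956 (both Untreated 1 low). These 25 were chosen by their spread on the same 4 ratios, so for them the gap share is a description and no test. Of the fixed genes, Cyp2a5 met it in log2 Cy5 signal with 0.857 (Untreated 1 low) and Nppa with 0.833 (Untreated 2 high). Of 41 lists, 4 met it in their median ratio: liver with 0.831 (Untreated 3 high), proliferation with 0.889 and immediate early with 0.877 (Untreated 1 high), and circadian clock with 0.861 (Untreated 1 low). The immediate early medians were 0.07, -0.02, -0.04 and -0.02, a range small beside the spread of its genes.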

How the results depend on the processing

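The number of ranked names stayed within 1.5 times of the reported one under every alternative run, from 16085 with Cy3 in place of Cy5 to 23994 with the weaker detection flag, and from 19079 to 19362 with 1 array left out. Of the 948 abundant names 946 were shared with normexp signals, 804 with Cy3 and 642 with the median over a gene's probes. In checks of a gene's place in the order, 174 kept it within the spread and 92 did not. The 285 variable genes became 94 with normexp and loess, 717 from Cy5 alone after quantile normalization, 125 among genes above the median signal, 474 with no condition on Cy3, and 124 to 469 with 1 array left out. The 63 genes past the test against the pool became 277 with median centring (226 higher and 51 lower, against 44 and 19), 39 with no filter on dim probes, 847 with all 16 arrays in the fit, 1085 with array weights (0.42 for Untreated 1, 3.213 for Untreated 4), and 1 to 69 with 1 array left out. A limma test for at least 1.5-fold called 0, with 18 at an unadjusted p below 0.05. Across the NNK, SECY and NNK+SECY groups, the middle value of the variable genes' median SD was 0.267 with normexp and loess, against 0.382. That alternative was chosen after seeing the data. The causes were not tested. No direction reversed among the results compared. In checks of named genes' mean ratio, 119 stayed on the same side of the threshold and 69 lost the call. No paired analysis was possible because replicate numbers name different mice and the test uses the Untreated arrays alone. Slide and scan day as a block were not run, since the 4 arrays lie on 4 slides of 1 scan day. Signal near background limits ratios of low genes, and saturation hides the order of the brightest 11.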

Other observations

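Detection itself differed between arrays. The median spot signal was 73, 73, 71 and 86 in Cy5 in Untreated 1 to 4. In Cy3, the same pool on every array, it was 67, 68, 69 and 72.5. The share well above background in Cy3 was 56.8%, 57.4%, 58.3% and 61.6%. The part of array brightness in the counts below was not tested. Among names whose brightest probe was well above background on a single Untreated array, 296 were seen on Untreated 1 alone, 158 on Untreated 2, 138 on Untreated 3 and 461 on Untreated 4. A further 398 were missed on Untreated 1 alone, against 115, 150 and 178 missed on Untreated 2, 3 and 4 alone.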
